A study of Homo sapiens with 9 samples.

Results

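The genes described here are 9 components of the MHC class I pathway: the heavy chains HLA-B, HLA-C, HLA-E and HLA-F, the shared light chain B2M, the peptide transporter subunits TAP1 and TAP2, tapasin (TAPBP) and the transactivator NLRC5. They were found by their gene names in a deposited table of 67140 rows, of which 36102 had at least 1 count. The 9 names stood on 51 rows. For each name 1 row held all of its counts, and the other 42 rows were empty, so all 9 genes were measured and all 9 passed the filter on low counts.

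RNA came from DMS273, an established human small cell lung cancer line, kept in RPMI medium with 10% fetal bovine serum. By CRISPRv2, cells had lost SQSTM1 together with ATG7 (ATG7/SQSTM1 KO) or ATG7 alone (ATG7 KO), or they carried a scrambled guide under the genotype label WT (control), and each group had 3 libraries of rRNA-depleted, strand-specific RNA. No drug treatment is named in the labels of these libraries. The labels do not say whether a knockout is 1 clone or a pool of edited cells, nor whether the libraries of a group came from separate cultures. If they did not, the p-values below speak of the spread among these libraries alone, which could be technical.

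MHC class I molecules show fragments of a cell's own proteins to cytotoxic T cells. Peptides cut by the proteasome are pumped into the endoplasmic reticulum by the TAP1-TAP2 transporter, tapasin holds an empty heavy chain beside the transporter until a peptide binds, and the heavy chain can leave for the surface only when paired with B2M. NLRC5 raises transcription of class I genes by joining factors (the RFX complex, CREB/ATF1 and NF-Y) that sit on a conserved module of class I promoters. Interferon acts on many of the same promoters through IRF factors. Small cell lung cancer is known for low class I expression. ATG7 encodes the E1-like enzyme needed to lipidate LC3 in autophagy, SQSTM1 encodes the cargo receptor p62, and class I molecules have been described in other tumour cells as cargo of selective autophagy through the receptor NBR1.

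Promoter sequences of the members are shown because known regulators of class I genes read such elements. Whether the elements had a part in the values of these libraries was not tested. RefSeq entries for GRCh38.p14 were matched for 7 members, HLA-B, HLA-C, HLA-F, B2M, TAP1, TAP2 and TAPBP, and were searched on both strands over the 250 bases before the start. Of the 2 entries for TAP1, that with the start farthest upstream was used. The start is that of the RefSeq entry and can differ from the GENCODE coordinates given for each gene further below. The windows of HLA-F, TAP1 and TAPBP lie inside those gene intervals. Each window below is given 5′ to 3′ on the gene's own strand, with the outermost chosen matches and 8 bases around them where the entry allowed. Capitals mark the interferon-response letters AANNGAAA or GAAA, any 2 letters and GAAA again, the NF-kB consensus, and the TGACG and ATTGG letters of the class I module, each in the orientation found.
HLA-B, chr6:31357248-31357364, minus strand: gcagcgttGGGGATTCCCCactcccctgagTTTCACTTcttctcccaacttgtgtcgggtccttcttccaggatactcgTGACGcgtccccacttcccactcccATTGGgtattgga
HLA-C, chr6:31272160-31272272, minus strand: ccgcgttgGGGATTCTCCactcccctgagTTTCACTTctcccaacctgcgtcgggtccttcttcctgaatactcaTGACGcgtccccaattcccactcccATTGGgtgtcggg
HLA-F, chr6:29723270-29723295, plus strand: ccccagagTTTCTCTTTCtctcccaa
B2M, chr15:44711365-44711480, plus strand: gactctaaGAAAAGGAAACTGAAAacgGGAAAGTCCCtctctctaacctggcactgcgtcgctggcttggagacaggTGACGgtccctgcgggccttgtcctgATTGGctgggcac
TAP1, chr6:32853759-32853846, minus strand: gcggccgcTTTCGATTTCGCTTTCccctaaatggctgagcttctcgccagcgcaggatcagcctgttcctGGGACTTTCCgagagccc
TAP2, chr6:32838780-32838809, minus strand: ggctggggAAGCGAAAGCGAAAgctgcccg
TAPBP, chr6:33314079-33314142, minus strand: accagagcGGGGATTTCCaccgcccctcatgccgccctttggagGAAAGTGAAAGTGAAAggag

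The letters AANNGAAA were present in 7 of the 7 member promoters and in 20.31% of 35116 promoters of the table. The longer form, GAAA and GAAA with any 2 letters between, which contains the shorter one, was present in 5 of 7 (HLA-F, B2M, TAP1, TAP2 and TAPBP) and in 3.02% of all promoters. An NF-kB consensus match was present in 5 of 7 (HLA-B, HLA-C, B2M, TAP1 and TAPBP) and in 9.96% of all. TGACG followed by ATTGG on the same strand, with 15 to 25 letters between, was present in HLA-B and HLA-C with 20 letters between, in B2M with 21, and in 0.41% of all promoters. These are matches of letters in a reference sequence. They do not show that a factor was bound in these cells.

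The depth of a library was 28675576 to 34222098 counts, and 26075 to 27439 genes were seen in each. Levels are given as CPM after scaling of the libraries with the trimmed mean of M values (TMM), and a gene is said to have risen or fallen when the edgeR quasi-likelihood p, adjusted over all 18847 tested genes with the Benjamini-Hochberg method, was under 0.05. ATG7 RNA was at 10.2 to 11.2 CPM in ATG7/SQSTM1 KO libraries, 9.98 to 13.0 CPM in ATG7 KO libraries and 26.4 to 28.1 CPM in control libraries, and SQSTM1 RNA was at 48.7 to 55.3, 387 to 395 and 373 to 380 CPM in the same order of groups, so both targeted genes followed the labels. The lung cancer label was checked with 11 neuroendocrine markers, all with counts, whose summed level was 940 to 965 CPM in ATG7/SQSTM1 KO, 514 to 526 CPM in ATG7 KO and 846 to 885 CPM in control libraries. Of 12 markers of blood and professional antigen-presenting cells, 9 had counts, and LYZ, MS4A1 and CD3E had 0 counts in all 9 libraries.

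In ATG7 KO cells all 9 genes were higher than in control cells, with fold changes from 1.52 for TAPBP to 2.17 for TAP1. The summed members took 0.212% to 0.215% of all counts in ATG7 KO libraries and 0.121% to 0.125% in control libraries. Of all tested genes, 28.4% were called higher and 28.3% lower in this comparison, 56.7% in either direction. For each of the 9 members the lowest ATG7 KO library lay above the highest control library, as it did for 30.8% of all tested genes. The median log2 fold change of the members was 0.84, and that of all tested genes was -0.02. In bulk RNA, more RNA per cell and more cells with high levels cannot be told apart.

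NLRC5 (ENSG00000140853, GRCh38 chr16:56989485-57083531, plus strand), the transactivator of class I genes, had 61.0, 61.1 and 62.7 CPM in ATG7 KO libraries, against 34.4, 38.2 and 35.2 CPM in control libraries. The ATG7 KO libraries were nearly equal to each other and all lay above control. The log2 fold change was 0.78 (SE 0.043, edgeR adjusted p = 1.32e-12), or 1.72-fold.

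Among the heavy chains, which bind the peptide, HLA-B (ENSG00000234745, chr6:31269491-31357188, minus strand) had 391, 386 and 392 CPM in ATG7 KO libraries, against 205, 215 and 226 CPM in control libraries. HLA-C (ENSG00000204525, chr6:31268749-31272130, minus strand) had 323, 320 and 318 CPM in ATG7 KO, against 164, 176 and 171 CPM in control. Both of these classical heavy chains, which present to T cells and are read by killer-cell receptors, were separated from control by a wide gap, with log2 fold changes of 0.85 (SE 0.031, edgeR adjusted p = 1.1e-15) for HLA-B and 0.91 (SE 0.030, edgeR adjusted p = 2.04e-16) for HLA-C. HLA-E (ENSG00000204592, chr6:30489467-30494205, plus strand), a non-classical chain that shows leader peptides of other class I chains to NKG2A receptors on natural killer cells, had 124, 126 and 122 CPM in ATG7 KO libraries, against 74.8, 71.7 and 73.4 CPM in control libraries. HLA-F (ENSG00000204642, chr6:29722775-29738528, plus strand), a non-classical chain also found as an open conformer, had 37.6, 33.4 and 36.0 CPM in ATG7 KO, against 22.7, 20.6 and 24.5 CPM in control. The log2 fold changes of these non-classical chains were 0.76 for HLA-E (SE 0.037, edgeR adjusted p = 1.74e-13) and 0.66 for HLA-F (SE 0.062, edgeR adjusted p = 9.94e-09), and HLA-F had the widest standard error of the 9 members.

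B2M (ENSG00000166710, chr15:44711487-44718877, plus strand), the light chain of every class I molecule, had 731, 705 and 729 CPM in ATG7 KO libraries, against 400, 403 and 403 CPM in control libraries. Its log2 fold change of 0.84 (SE 0.026, edgeR adjusted p = 8.67e-17) was close to that of HLA-B.

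Of the peptide loading genes, TAP1 (ENSG00000168394, chr6:32845209-32853978, minus strand) had 112, 113 and 109 CPM in ATG7 KO libraries, against 49.3, 50.5 and 53.7 CPM in control libraries, and its log2 fold change of 1.12 (SE 0.037, edgeR adjusted p = 2.96e-16) was the largest of the 9. TAP2 (ENSG00000204267, chr6:32821833-32838780, minus strand), the other subunit of the transporter, had 193, 202 and 188 CPM in ATG7 KO, against 108, 110 and 109 CPM in control. TAPBP (ENSG00000231925, chr6:33299694-33314387, minus strand), which encodes tapasin, had 215, 223 and 221 CPM in ATG7 KO, against 141, 151 and 141 CPM in control. The groups did not overlap for either gene, and the log2 fold changes were 0.84 (SE 0.036, edgeR adjusted p = 2.31e-14) for TAP2 and 0.61 (SE 0.031, edgeR adjusted p = 4.59e-13) for TAPBP, the smallest of the 9.

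**Figure D1:**
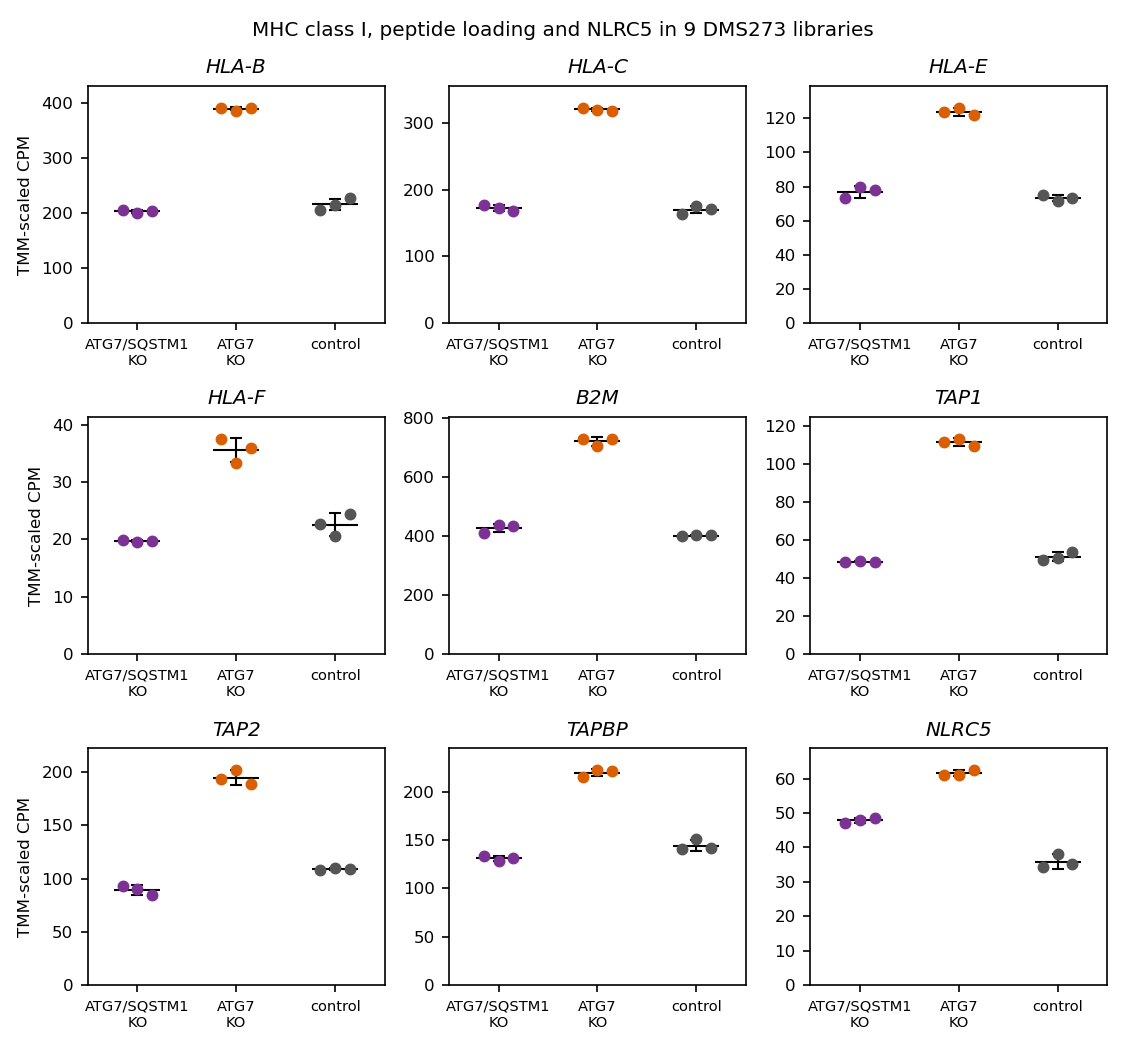
Level of each of the 9 genes in each library, in TMM-scaled CPM on axes that start at 0, for ATG7/SQSTM1 KO (purple), ATG7 KO (orange) and control (grey). Points are libraries, and lines and bars are the mean and SD of 3. In every panel the 3 ATG7 KO libraries lie above all other libraries, and NLRC5 has its ATG7/SQSTM1 KO libraries about midway between the other groups.

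Levels per kilobase of exon allow the members to be compared with each other. In ATG7/SQSTM1 KO cells B2M (70.3 ± 2.27 CPM per kb, SD, n = 3), HLA-C (68.9 ± 1.75) and HLA-B (66.6 ± 0.865) were the most abundant, and neighbours in this order overlapped between libraries. In ATG7 KO cells HLA-C (128 ± 1.09 CPM per kb) and HLA-B (128 ± 1.01) overlapped, and B2M (119 ± 2.39) lay below them. In control cells the order was HLA-B (70.6 ± 3.52 CPM per kb), HLA-C (67.9 ± 2.30) and B2M (66.1 ± 0.295), again with overlap between neighbours. The loading genes and HLA-E came next in each group, and HLA-F and NLRC5 came last, with 4.54 ± 0.0489 and 3.87 ± 0.0576 CPM per kb in ATG7/SQSTM1 KO, 8.21 ± 0.491 and 4.97 ± 0.0757 in ATG7 KO, and 5.20 ± 0.456 and 2.90 ± 0.166 in control. The order depended on the length used. Divided by the longest annotated transcript in place of the union of exons, B2M came first in every group. It had 178, 300.3 and 167 CPM per kb in ATG7/SQSTM1 KO, ATG7 KO and control, ahead of HLA-B with 131, 252 and 139. TAP1 and TAP2 also changed places in both knockouts. In ATG7 KO TAP2 and TAP1 had 30.5 and 23.2 CPM per kb by union of exons, and 34.2 and 37.6 by longest transcript. In control TAP2 stayed above TAP1.

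In ATG7/SQSTM1 KO cells the members stood close to control, and they did not move in 1 direction. NLRC5 and B2M were called higher, HLA-B, HLA-F, TAP2 and TAPBP were called lower, and HLA-C, HLA-E and TAP1 were not called. Of all tested genes, 19% were called higher and 19.6% lower in this comparison, 38.6% in either direction, so the members' 2 higher and 4 lower calls are to be read against those shares. The median log2 fold change of the members was -0.08, and that of all tested genes was -0.01. Libraries did not overlap between the groups for 6 of the 9 members and for 48.8% of all tested genes.

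NLRC5 had 47.1, 48.1 and 48.5 CPM in ATG7/SQSTM1 KO libraries, against 34.4, 38.2 and 35.2 CPM in control libraries, a log2 fold change of 0.42 (SE 0.043, edgeR adjusted p = 1.26e-07), or 1.33-fold. All of its ATG7/SQSTM1 KO libraries lay above control. TAP2 was on the other side, with 92.8, 90.5 and 84.4 CPM in ATG7/SQSTM1 KO against 108, 110 and 109 CPM in control (log2 fold change -0.29, SE 0.037, edgeR adjusted p = 1.92e-06). TAPBP had 133, 129 and 132 CPM in ATG7/SQSTM1 KO against 141, 151 and 141 CPM in control (log2 fold change -0.14, SE 0.032, edgeR adjusted p = 0.00153). These 3 calls were kept under all 18 alternative settings and left-out libraries, with log2 fold changes of 0.39 to 0.46 for NLRC5, -0.31 to -0.25 for TAP2 and -0.15 to -0.11 for TAPBP. Among the 18, summing rows of 1 gene name left the table unchanged, so it was no test. Summing the heavy chains left the counts of these 3 genes as they were.

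The other 3 calls were small and depended on single libraries. B2M had 412, 437 and 434 CPM in ATG7/SQSTM1 KO libraries, against 400, 403 and 403 CPM in control libraries, and its log2 fold change of 0.09 (edgeR adjusted p = 0.00955) was no longer called without ATG7/SQSTM1 KO replicate 2 (0.07, adjusted p = 0.0703) or replicate 3 (0.08, adjusted p = 0.0561). HLA-F had 19.9, 19.5 and 19.8 CPM in ATG7/SQSTM1 KO, against 22.7, 20.6 and 24.5 CPM in control. Its log2 fold change of -0.20 (edgeR adjusted p = 0.0191) lost its call without control replicate 1 (-0.19, adjusted p = 0.0546), control replicate 3 (-0.14, adjusted p = 0.136) or ATG7/SQSTM1 KO replicate 2 (-0.19, adjusted p = 0.0539). HLA-B had 206, 201 and 204 CPM in ATG7/SQSTM1 KO, against 205, 215 and 226 CPM in control, so the groups overlapped. Its log2 fold change of -0.08 (95% CI -0.15 to -0.02, edgeR adjusted p = 0.0367) lost its call without control replicate 2 (adjusted p = 0.0753) or 3 (-0.05, adjusted p = 0.263), ATG7 KO replicate 1 (adjusted p = 0.0628) or 3 (adjusted p = 0.0666), or ATG7/SQSTM1 KO replicate 1 (adjusted p = 0.0675), 2 (adjusted p = 0.111) or 3 (adjusted p = 0.0658).

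Of the 3 genes not called, HLA-C had 177, 172 and 168 CPM in ATG7/SQSTM1 KO libraries, against 164, 176 and 171 CPM in control libraries, with a log2 fold change of 0.02 (95% CI -0.04 to 0.08, edgeR adjusted p = 0.624). HLA-E had 73.2, 80.0 and 78.1 CPM in ATG7/SQSTM1 KO, against 74.8, 71.7 and 73.4 CPM in control (0.07, 95% CI -0.01 to 0.15, edgeR adjusted p = 0.143), and was called higher (0.11, adjusted p = 0.0251) once ATG7/SQSTM1 KO replicate 1 was left out. TAP1 had 48.5, 48.8 and 48.2 CPM in ATG7/SQSTM1 KO, against 49.3, 50.5 and 53.7 CPM in control (-0.08, 95% CI -0.16 to 0.00, edgeR adjusted p = 0.118). The groups overlapped for HLA-C and HLA-E and did not for TAP1. With the 4 heavy chains summed to 1 row, the log2 fold change of ATG7/SQSTM1 KO against control was -0.03 (edgeR adjusted p = 0.43).

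Between the knockouts, all 9 genes were lower in ATG7/SQSTM1 KO than in ATG7 KO cells, and no library of 1 group reached the other. For 32.4% of all tested genes every ATG7/SQSTM1 KO library lay below every ATG7 KO library. Of all tested genes, 29.9% were called lower and 30.5% higher here, 60.5% in either direction. The median log2 fold change of the members was -0.85, and that of all tested genes was 0.02. This comparison shares its ATG7 KO libraries with ATG7 KO against control, so the direction here and there is not independent. TAP1 was lowest relative to ATG7 KO, at 0.436-fold (log2 -1.20, SE 0.037, edgeR adjusted p = 1.15e-16), followed by TAP2 at 0.458-fold (log2 -1.13, SE 0.037, edgeR adjusted p = 2.26e-16). The heavy chains stood at 0.522-fold (HLA-B), 0.539-fold (HLA-C), 0.622-fold (HLA-E) and 0.553-fold (HLA-F) of ATG7 KO, B2M at 0.592-fold and TAPBP at 0.597-fold. NLRC5 showed the smallest difference, at 0.777-fold (log2 -0.36, SE 0.042, edgeR adjusted p = 1.55e-07).

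**Figure D2:**
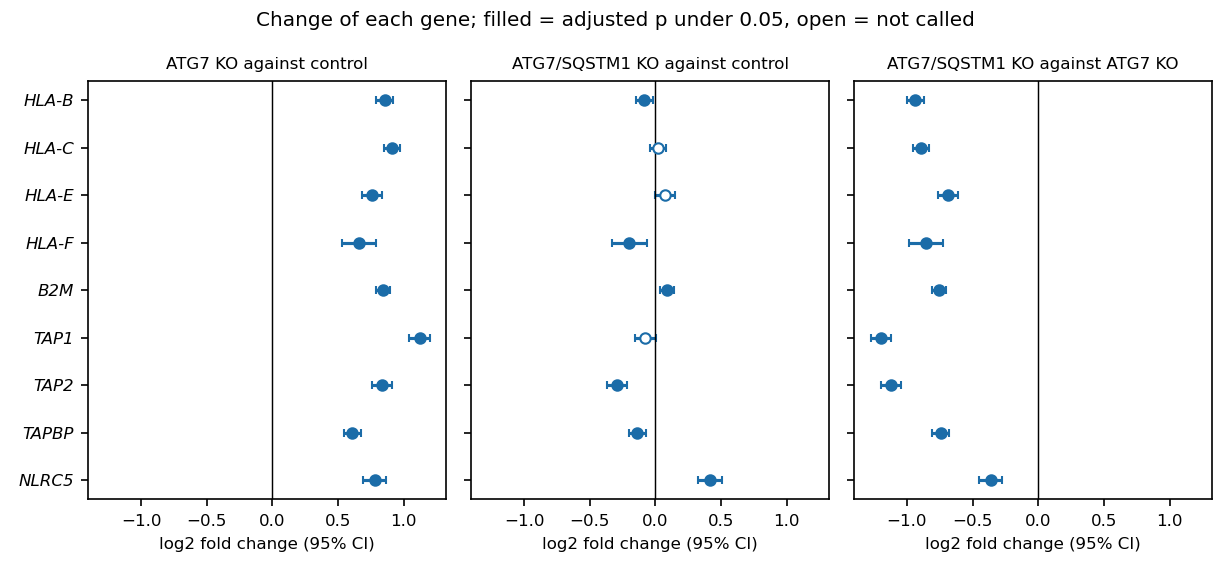
Log2 fold change of each of the 9 genes with its 95% confidence interval in the 3 comparisons, on a shared axis; filled points passed an edgeR adjusted p under 0.05 and open points did not. All 9 lie right of 0 in ATG7 KO against control and left of 0 in ATG7/SQSTM1 KO against ATG7 KO, and in ATG7/SQSTM1 KO against control they lie between -0.29 (TAP2) and 0.42 (NLRC5).

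Ratios of counts between 2 members within a library do not depend on how libraries are scaled, and they show how evenly the genes moved. In 18 such comparisons the smallest two-sided exact permutation p for 3 against 3 libraries is 0.1, so no ratio could pass 0.05, and the lowest adjusted p was 0.2. TAP1 counts were 0.572 ± 0.0115 of TAP2 counts in ATG7 KO libraries and 0.470 ± 0.0221 in control libraries (SD, n = 3 each, exact p = 0.1), without overlap. The ratio in ATG7/SQSTM1 KO libraries was 0.544 ± 0.0248, also above all control libraries (exact p = 0.1). Tapasin's ratio behaved differently: TAP1 counts were 0.507 ± 0.0116 of TAPBP counts in ATG7 KO and 0.355 ± 0.0228 in control libraries without overlap (exact p = 0.1), whereas ATG7/SQSTM1 KO libraries, with 0.370 ± 0.00868, overlapped with control (exact p = 0.5).

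Counts of NLRC5 relative to B2M were 0.112 ± 0.00222 in ATG7/SQSTM1 KO, 0.0854 ± 0.00173 in ATG7 KO and 0.0894 ± 0.00489 in control libraries. ATG7/SQSTM1 KO libraries lay above all others (exact p = 0.1 against either group), and ATG7 KO overlapped with control (exact p = 0.3). HLA-E counts relative to those of HLA-B plus HLA-C were 0.205 ± 0.0123 in ATG7/SQSTM1 KO, 0.175 ± 0.00382 in ATG7 KO and 0.190 ± 0.0108 in control libraries, so ATG7 KO libraries lay lowest and did not overlap with either group (exact p = 0.1 each). HLA-B plus HLA-C relative to B2M was 0.880 ± 0.0433 in ATG7/SQSTM1 KO, 0.984 ± 0.0156 in ATG7 KO and 0.959 ± 0.0328 in control libraries, and only the knockouts were separate from each other (exact p = 0.1). HLA-F relative to HLA-B plus HLA-C, at 0.0524 ± 0.000640, 0.0502 ± 0.00272 and 0.0586 ± 0.00523 in ATG7/SQSTM1 KO, ATG7 KO and control, overlapped in every pair of groups.

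**Figure D3:**
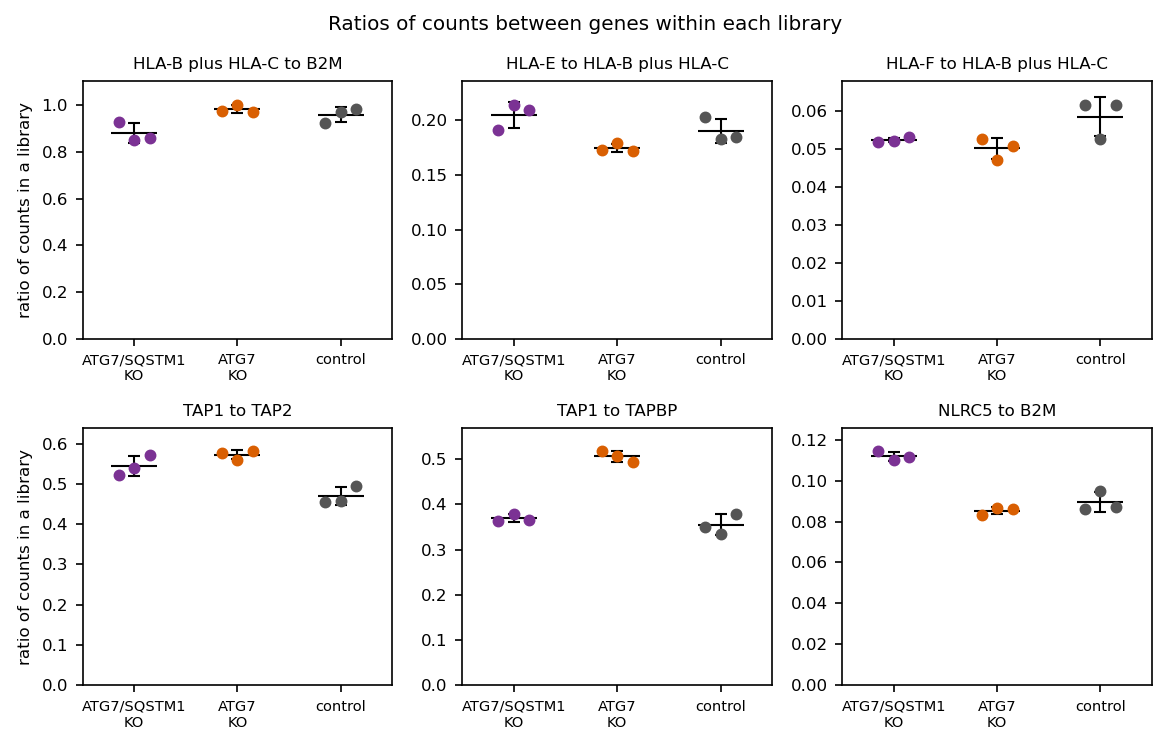
Ratio of the counts of 2 members, or of 1 member to HLA-B plus HLA-C, in each library of ATG7/SQSTM1 KO, ATG7 KO and control, on axes that start at 0. Points are libraries, lines and bars are mean and SD of 3. NLRC5 to B2M stands highest in ATG7/SQSTM1 KO (0.112), and TAP1 to TAPBP stands highest in ATG7 KO (0.507).

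Heavy chain genes are close paralogs, and reads can be shared among them. Of all 50-base windows along the reference transcripts, 2.54% for HLA-B, 6.71% for HLA-C, 5.13% for HLA-E and 1.7% for HLA-F also occurred in another gene, and none did for B2M and NLRC5. TAP2 had the largest share, 35.76%, and 2064 of its 6390 exonic bases lie on the same strand as the annotated gene AL669918.1, which had 0.549, 3.24 and 1.22 CPM in the control libraries. These shares come from the reference and not from the alleles of this line, which may differ in the HLA genes. With the 4 heavy chains summed, ATG7 KO against control gave a log2 fold change of 0.85 (edgeR adjusted p = 2.42e-17), and ATG7/SQSTM1 KO against ATG7 KO gave -0.88 (edgeR adjusted p = 1.74e-17).

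Some exons are shared with genes on the opposite strand: HLA-F shares 535 bases with HLA-F-AS1, 701 with AL645939.1 and 257 with RPL23AP1, HLA-B shares 542 with AL671883.2, and TAP1 shares 456 with PSMB8-AS1. HLA-B and HLA-C share 35 exonic bases on the same strand. The libraries keep strand, but the strand setting of the counting is not given in the sources used here, so reads of such pairs may not be fully separated. HLA-F-AS1 had a mean of 2.72 CPM in ATG7 KO libraries and 7.41 CPM in control libraries, with a log2 fold change of -1.44 (edgeR adjusted p = 6.91e-09), the opposite direction to HLA-F. Its mean in ATG7/SQSTM1 KO libraries was 5.50 CPM and was also below control (log2 fold change -0.43, edgeR adjusted p = 0.00922). PSMB8-AS1 was higher in ATG7 KO than in control (log2 fold change 1.37), as TAP1 was.

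Other genes of the pathway were grouped by role in 5 lists, whose counts of calls are to be read against the shares over all tested genes. Those shares were 28.4% higher and 28.3% lower in ATG7 KO against control. They were 19% and 19.6% in ATG7/SQSTM1 KO against control, and 30.5% and 29.9% in ATG7/SQSTM1 KO against ATG7 KO. Of 10 genes that supply and trim peptides, 8 rose and 2 fell in ATG7 KO against control, with a median log2 fold change of 0.71. PSMB8 (89.8 ± 1.53 CPM in ATG7 KO, 47.9 ± 1.09 in control, SD, n = 3 each) and PSMB9 (56.6 ± 3.35 and 24.9 ± 2.14 CPM) encode catalytic subunits of the immunoproteasome, and they rose by 0.91 and 1.18 on the log2 scale. PSME2, a subunit of the PA28 proteasome activator (232 ± 5.15 CPM in ATG7 KO, 132 ± 3.88 in control), rose by 0.81, and ERAP2, which trims peptides in the endoplasmic reticulum (169 ± 2.66 and 87.1 ± 2.31 CPM), rose by 0.96. Of the 10, 1 was higher and 4 were lower in ATG7/SQSTM1 KO against control, among them PSMB8 (log2 fold change -0.10) and PSMB9 (-0.18), while PSME2 (-0.07, edgeR adjusted p = 0.0781) and ERAP2 (0.02, edgeR adjusted p = 0.707) were not called. Between the knockouts 8 of 10 were lower and 2 higher in ATG7/SQSTM1 KO.

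All 6 genes for folding and quality control in the endoplasmic reticulum rose in ATG7 KO against control, with a median of 0.26, beside 0.84 for the 9 members. TAPBPL, the tapasin-related peptide editor TAPBPR, had 11.5 ± 0.238 CPM in ATG7 KO and 6.28 ± 0.128 CPM in control (log2 fold change 0.87). BCAP31, a cargo receptor for export (191 ± 7.85 and 124 ± 3.48 CPM), rose by 0.62, the chaperone calnexin, CANX (986 ± 19.6 and 815 ± 6.24 CPM), by 0.28, and PDIA3, the disulfide isomerase ERp57 of the loading complex (452 ± 4.56 and 384 ± 11.5 CPM), by 0.24. Of the 6, 2 were higher, 1 was lower and 3 were not called in ATG7/SQSTM1 KO against control. BCAP31 stood above control there (154 ± 2.89 CPM, log2 fold change 0.31) and CANX below it (734 ± 3.68 CPM, -0.15). Between the knockouts 5 of 6 were lower in ATG7/SQSTM1 KO.

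Of 17 regulators of class I transcription, 8 rose, 5 fell and 4 were not called in ATG7 KO against control, with a median of 0.06. IRF1, a factor that binds the interferon-response letters, had 53.0 ± 1.64 CPM in ATG7 KO and 25.5 ± 0.405 CPM in control (log2 fold change 1.06). CIITA, the relative of NLRC5 that drives class II genes (13.5 ± 0.915 and 6.81 ± 0.947 CPM), rose by 0.99 on the log2 scale, and STAT2, a partner of interferon signalling (30.2 ± 0.828 and 20.5 ± 0.775 CPM), by 0.56. RFX5, the subunit of the RFX complex that binds the class I module with RFXANK and RFXAP, went the other way, with 548 ± 3.16 CPM in ATG7 KO and 642 ± 6.72 CPM in control (log2 fold change -0.23). The comparison of ATG7/SQSTM1 KO with control had 5 higher, 7 lower and 5 not called. CIITA was higher there (8.52 ± 0.970 CPM, 0.32) and IRF1 lower (22.3 ± 0.801 CPM, -0.20). Between the knockouts 11 were lower and 3 higher in ATG7/SQSTM1 KO, with RFX5 among the higher ones (0.29).

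Of 8 genes tied to class I turnover at the surface or in lysosomes, 4 rose and 2 fell in ATG7 KO against control, with a median of 0.09. NBR1, the autophagy receptor named above, had 90.0 ± 1.02 CPM in ATG7 KO and 71.9 ± 1.13 CPM in control (log2 fold change 0.32). TMEM127 (30.6 ± 0.601 and 22.5 ± 1.31 CPM, 0.44) and the ubiquitin ligase WWP2 (50.6 ± 0.766 and 39.5 ± 1.32 CPM, 0.36), which have been described as partners in lowering surface class I, rose as well. The membrane-bound ubiquitin ligase MARCHF9 fell, with 5.37 ± 0.242 CPM in ATG7 KO and 8.58 ± 0.394 CPM in control (-0.67). Of the 8, 1 was higher, 1 lower and 6 not called in ATG7/SQSTM1 KO against control, and none of these 4 named genes was called. In that comparison 38.6% of all tested genes were called in either direction. Between the knockouts 4 were lower and 2 higher in ATG7/SQSTM1 KO.

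The last list held 14 class I-like genes and ligands of NKG2D, the activating receptor of natural killer cells, and 9 of them passed the filter. In ATG7 KO against control 5 rose, 1 fell and 3 were not called. MICA had 20.03 ± 1.19 CPM in ATG7 KO and 9.79 ± 0.261 CPM in control (log2 fold change 1.03), and ULBP2 had 6.19 ± 0.401 and 4.06 ± 0.0998 CPM (0.61). ULBP1, another NKG2D ligand, fell by 1.15, with 3.26 ± 0.269 CPM in ATG7 KO and 7.24 ± 0.978 CPM in control. RAET1L, also of this ligand family, was near the limit of detection, with 0.727 ± 0.115 CPM in ATG7 KO and 0.184 ± 0.0565 CPM in control. In ATG7/SQSTM1 KO against control 3 were higher and 3 lower, and between the knockouts 2 were higher and 6 lower in ATG7/SQSTM1 KO. RAET1E, with 0 counts in ATG7/SQSTM1 KO libraries, was among the lower genes in both comparisons. It was near the floor in control too, with a mean of 0.0731 CPM, against 0.476 CPM in ATG7 KO. Its ATG7/SQSTM1 KO and control libraries overlapped, so the call against control rests on very few counts. RAET1E and RAET1L passed the filter on low counts only through their ATG7 KO level. Their calls involving ATG7 KO are therefore not independent of that filter. HLA-G, the class I chain of the placenta, did not pass the filter, with a mean of 0.0548 CPM in ATG7 KO and 0 counts in the other groups.

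**Figure D4:**
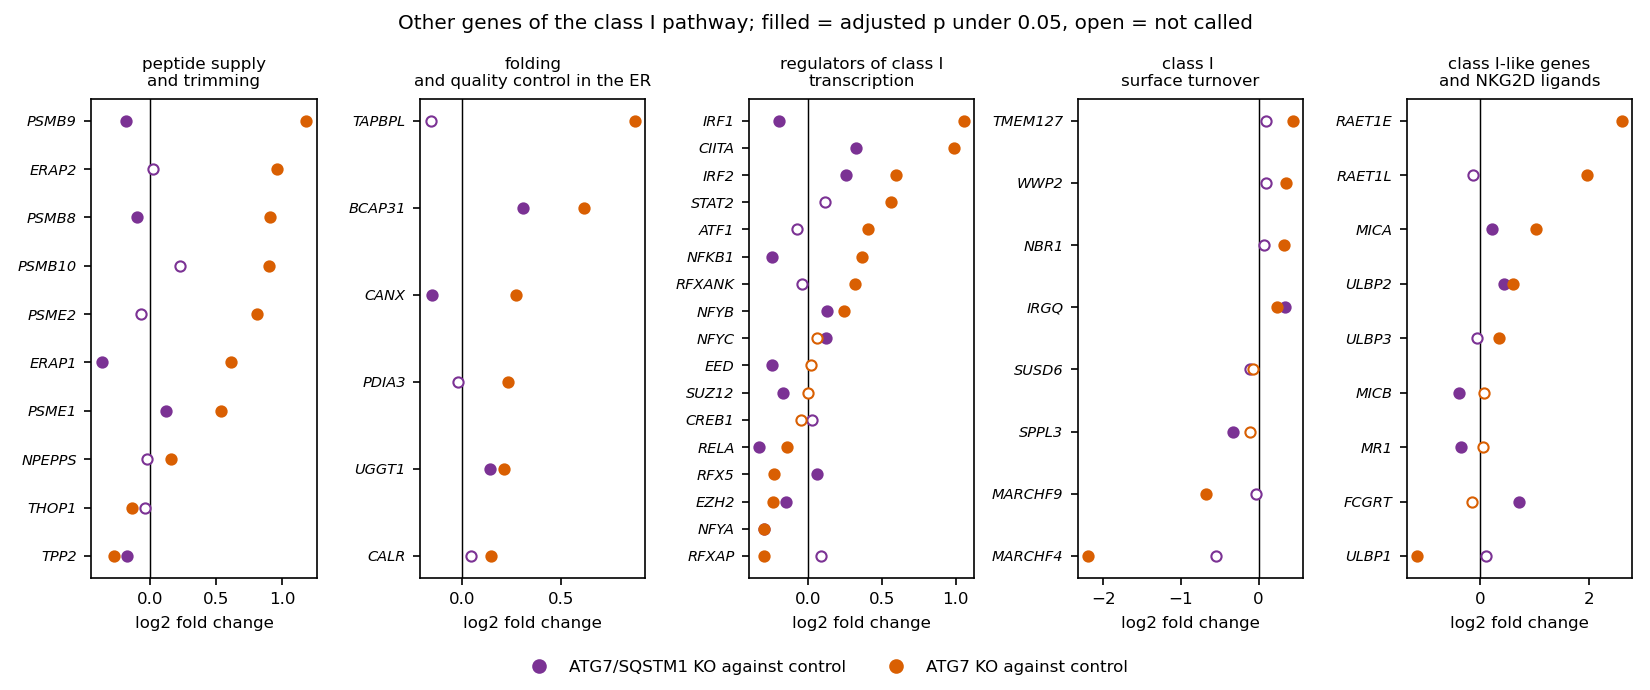
Log2 fold change of each tested gene of 5 lists of the class I pathway in ATG7/SQSTM1 KO against control (purple) and ATG7 KO against control (orange); filled points passed an edgeR adjusted p under 0.05 and open points did not, and the axis range differs between panels. RAET1E had 0 counts in ATG7/SQSTM1 KO libraries and has no purple point. The orange points of the peptide supply list reach from TPP2 below 0 to PSMB9 at 1.18.

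Over the 9 libraries, the pattern of each member followed the mean pattern of all 9 (each as log2 CPM, centred and scaled) with Pearson r from 0.8376 for NLRC5 to 0.9981 for HLA-C. Each member was itself part of that mean, which raises its r. These values describe 9 libraries in 3 groups and carry no test. Among 11234 genes with a mean of at least 5 CPM, the 6 protein-coding genes most like that mean pattern were SAMD9 (r = 0.9992), OAS2 (r = 0.999), ERAP2 (r = 0.9988), RAB5C (r = 0.9983), SAMHD1 (r = 0.9978) and IFNGR1 (r = 0.9978), over the same 9 libraries. OAS2, an interferon-induced sensor of double-stranded RNA, had 6.14 CPM in ATG7/SQSTM1 KO, 81.8 CPM in ATG7 KO and 5.90 CPM in control. IFNGR1, the ligand-binding chain of the interferon gamma receptor, had 82.7, 162 and 81.1 CPM in the same order of groups.

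Markers of other cell types also moved with the groups. The summed level of 12 blood and antigen-presenting cell markers was 4.22 to 5.80 CPM in ATG7/SQSTM1 KO, 10.7 to 12.3 CPM in ATG7 KO and 6.62 to 7.47 CPM in control libraries. For 10 fibroblast markers, all with counts, it was 338 to 359, 669 to 708 and 190 to 205 CPM in the same order of groups. For 5 endothelial markers, all with counts, it was 0.828 to 1.41, 3.37 to 3.82 and 1.71 to 2.07 CPM. Of the tested markers in ATG7 KO against control, 10 of 11 neuroendocrine markers fell and 1 rose, and 3 of 6 blood markers rose and 1 fell. Of the tested fibroblast markers 5 of 9 rose and 4 were not called, and of the endothelial markers 3 of 3 rose. The fibroblast sum came mainly from COL3A1 (327 CPM in ATG7 KO, 75.0 in control), LUM (225 and 79.5) and COL1A1 (99.0 and 19.7). Among all tested genes 28.4% were called higher and 28.3% lower. In ATG7/SQSTM1 KO against control, 2 of 6 tested blood markers were higher and 3 lower, so their lower sum does not describe each marker. There 6 of 9 fibroblast markers were higher and 1 lower, and 4 of 11 neuroendocrine markers were higher and 4 lower. Of 3 endothelial markers 0 were higher and 1 was lower. The shares of all tested genes were 19% higher and 19.6% lower there. The endothelial markers CDH5 (0.340 CPM in ATG7 KO, 0.281 in control) and KDR (0.0531 and 0.0982 CPM) did not pass the filter. VWF (0.531 and 0.107 CPM) and the blood marker PTPRC (1.47 and 0.174 CPM) passed it only through their ATG7 KO levels. The rises of VWF and PTPRC are therefore not independent of the filter. The part of any of these markers in the class I values was not tested.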

How the data were processed

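Total RNA of DMS273 cells was depleted of rRNA from 400 ng and made into dUTP-marked libraries with 12 PCR cycles, per the labels' protocols. The submitters' processing notes name HISAT2 and hg38. How genes were counted (program, annotation, strand) is not given in the sources used. The authors deposited whole-number counts per gene, 1 column per library, without normalization as far as the values show. Missing cells (362598) were read as 0, and 1 column that belongs to no library and 1 row that numbers the columns were left out. Coordinates, exon lengths and overlaps come from GENCODE release 29 on GRCh38, to which 58503 gene IDs were matched, and promoter sequences from RefSeq (GRCh38.p14).

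Testing used edgeR 4.0.16 under R 4.3.3: filterByExpr by group (minimum count 10, 18847 genes tested), TMM scaling (factors 0.977 to 1.01), and a robust quasi-likelihood fit of group means over all 9 libraries with 6 residual degrees of freedom and a common biological coefficient of variation of 6.39%. P-values were adjusted over all tested genes with the Benjamini-Hochberg method, with 0.05 as the threshold. Libraries of 1 group differed beyond sampling noise (chi-square 4.47 to 7.03 per degree of freedom), so none looked like a library deposited again, which does not show that they are separate cultures. Ratios within libraries were compared with exact two-sided permutation tests. The scripts were tested on simulated data.

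All 9 members are named in every comparison, and of each pathway list the 4 tested genes with the smallest p in ATG7 KO against control. Genes most alike in pattern were ranked by Pearson r, without pseudogenes and noncoding clone names. Some of the genes in these lists are not reported here. The members and lists were chosen with earlier results of these data known. Genes and markers outside these rules were named after their values were seen. These were PSMB8-AS1, HLA-F-AS1, AL669918.1, HLA-G, RAET1E and TPP2, and the markers LYZ, MS4A1, CD3E, PTPRC, CDH5, KDR, VWF, COL3A1, LUM and COL1A1. The alternatives tried were library totals alone, relative log expression size factors, 2 other low-count filters, DESeq2 1.42.0, the 6 libraries compared, the replicate number as a block, rows of 1 gene name summed, the heavy chains summed, the longest transcript as length, and each library left out.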

Additional observations from a re-analysis of the deposited data

How the results depend on the processing

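Every member's call in ATG7 KO against control and in ATG7/SQSTM1 KO against ATG7 KO kept its direction and its side of the threshold under all alternatives run, and no result of any comparison reversed. One of the alternatives, rows of 1 gene name summed, left the table unchanged and could not differ. In ATG7/SQSTM1 KO against control, with libraries left out one at a time, 2 to 4 members were called lower and 1 to 3 higher, against 4 and 2 with all libraries. HLA-B in that comparison also lost its call with no low-count filter (-0.08, adjusted p = 0.107) and with the 6 libraries compared (-0.08, adjusted p = 0.0798). Library totals alone moved the median log2 fold change of all genes by -0.0422 in ATG7 KO against control and by less in the others. With the longest transcript as length, levels per kilobase moved for all 9 members. The titles give groups the same replicate numbers. With the replicate number as a block, 10564 genes were called in ATG7 KO against control (10686 without it), 7137 in ATG7/SQSTM1 KO against control (7281) and 11262 between the knockouts (11395), and the members' counts of calls were as without it. Deviations of same-numbered libraries correlated at -0.0613 to 0.0234 and those of others at -0.0466 to 0.0527, and 0 of 9 libraries correlated best with their own number. These values gave no sign of a pairing by number, but they could miss a weak shared effect. Counts of a group's libraries varied by more than sampling gives, so 3 libraries a group, and not depth alone, limit the precision.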

Other observations

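The stretch of chromosome 6 from HLA-F to TAPBP (GRCh38 chr6:29722775-33314387), which spans the MHC region, holds 146 tested genes besides the members and was looked at after the data were seen. Of these, 63 (43.2%) were called higher and 25 (17.1%) lower in ATG7 KO against control, where 28.4% and 28.3% of all tested genes were. In ATG7/SQSTM1 KO against control 11 (7.53%) were called higher and 54 (37%) lower, against 19% and 19.6% of all tested genes. Between the knockouts 12 (8.22%) were higher and 77 (52.7%) lower in ATG7/SQSTM1 KO, against 30.5% and 29.9% of all tested genes. The median log2 fold changes of the 146 were 0.14, -0.16 and -0.36 in these comparisons. The interval includes genes of the pathway lists such as PSMB8, PSMB9 and MICA, and these shares are a description with no test.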
